A study of Mus musculus with 6 samples.

Results

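The *Sox* genes *Sox2*, *Sox4*, *Sox5*, *Sox6*, *Sox8*, *Sox9*, *Sox10*, *Sox11*, *Sox12* and *Sox13* were followed in RNA sequencing of 6 mouse breast tumors. They were chosen by gene symbol, though with earlier results of these data known, and are 10 of the 18460 genes listed in at least 1 tumor. Reads were listed for 10 of 10, and 9 passed the filter on low counts that left 13706 genes for testing. The study compared 3 test tumors with 3 control tumors from female mice, with 1 tumor per mouse. Mice of both groups carried PyMTtg, the polyoma middle T oncogene under the mouse mammary tumor virus promoter, which drives breast cancer in mammary epithelium. Both groups were Rag1KO on the Balb/c background and so lacked T and B cells of their own. Both also received sorted naive CD4+ T cells from donor spleens at 4 wk of age, and tumors were taken between 18 and 20 wk of age. Test mice alone carried K14-TSLPtg, which overexpresses the cytokine TSLP from the keratin 14 promoter, a promoter of keratinocytes. The question was which genes differ between tumors of mice with and without the TSLP transgene.

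SOX proteins are transcription factors that bind the minor groove of DNA through an HMG box, a domain first seen in the testis-determining factor SRY, and bend the DNA there. They are sorted into groups by the sequence of that box, and members of a group often stand in for one another. SOX8, SOX9 and SOX10 form group E, with roles in cartilage, neural crest, glia and, for SOX9 and SOX10, progenitor cells of the mammary gland. SOX4, SOX11 and SOX12 form group C and act in progenitor cells of many tissues. SOX5, SOX6 and SOX13 form group D, which has no activation domain of its own, and SOX2 is a pluripotency factor of group B.

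The boxes of the 3 group E genes are shown because these genes have nearly the same DNA-binding domain and yet had very different levels in the tumors. The sequences were read from GENCODE M21 transcripts on GRCm38, run 5′ to 3′, and span 79 codons, or 237 bases. Capitals in *Sox9* and *Sox8* mark the bases that differ from *Sox10*, of which there are 40 and 44.
Sox10: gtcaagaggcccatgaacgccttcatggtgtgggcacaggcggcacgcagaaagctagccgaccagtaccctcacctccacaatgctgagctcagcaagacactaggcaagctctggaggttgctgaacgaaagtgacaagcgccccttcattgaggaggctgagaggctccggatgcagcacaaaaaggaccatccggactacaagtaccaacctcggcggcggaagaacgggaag
Sox9: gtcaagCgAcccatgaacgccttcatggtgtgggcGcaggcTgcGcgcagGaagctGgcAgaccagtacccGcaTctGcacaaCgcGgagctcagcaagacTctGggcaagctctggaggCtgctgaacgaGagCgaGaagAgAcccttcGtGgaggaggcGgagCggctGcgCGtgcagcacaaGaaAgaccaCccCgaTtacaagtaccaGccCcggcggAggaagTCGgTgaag
Sox8: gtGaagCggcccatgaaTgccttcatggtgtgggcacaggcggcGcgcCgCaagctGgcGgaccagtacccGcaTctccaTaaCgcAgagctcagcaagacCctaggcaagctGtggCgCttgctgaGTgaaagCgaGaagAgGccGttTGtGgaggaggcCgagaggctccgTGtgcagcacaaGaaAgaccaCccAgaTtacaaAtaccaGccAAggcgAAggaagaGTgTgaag
The box was coded by exons 3 and 4 of 5 in *Sox10* (chr15:79163289-79163407 and chr15:79159286-79159403, minus strand). In *Sox9* it lay in exons 1 and 2 of 3 (chr11:112782897-112783015 and chr11:112783809-112783926, plus strand). In *Sox8* it lay in exons 1 and 2 of 3 (chr17:25570110-25570228 and chr17:25568943-25569060, minus strand). An intron split it after base 119 in all 3 genes. The *Sox8* and *Sox9* boxes were identical in 85.2% of bases and in 98.7% of the residues they code, with 1 residue that differs. Box identity to *Sox10* was 93.7% of residues for *Sox9* and 92.4% for *Sox8*.

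The exon structure of the box followed the groups. In *Sox5*, *Sox6* and *Sox13* an intron split it after base 106, at a different place from that in group E. In *Sox2*, *Sox4*, *Sox11* and *Sox12*, which have 1 exon each, the box was unbroken. Residue identity within groups C and D ran from 84.8% (*Sox4* and *Sox12*) to 93.7% (*Sox5* and *Sox13*), and the lowest base identity of any pair was 51.5% (*Sox6* and *Sox8*). The longest run of identical bases between transcripts of any pair was 48 bases, between *Sox4* and *Sox11*, and it was 44 bases between *Sox9* and *Sox10*. Reads within such runs could be assigned to either gene. Expected counts were not whole for *Sox5* in 6 tumors and for *Sox9* in 2 tumors, and were whole for the other members.

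Expected counts, which are estimates of the reads from a gene, summed to between 8373390 and 9449565 per tumor. Levels are given in FPKM, counts scaled by transcript length and by depth, which allows genes to be set against each other. Tests used the counts, and whether the groups overlapped was read from CPM, counts scaled by depth alone with the TMM method. *Krt18*, a keratin of luminal epithelium, was at 335 to 1206 FPKM in all 6 tumors. Counts of *Tslp* were 2, 2 and 3 in control replicates 1, 2 and 3, against 12, 7 and 2 in test replicates 1, 2 and 3, so that test replicate 3 was at the level of the controls. A level of 3 counts was taken as the smallest that the depth can show, a limit of counting error only. The spread between tumors of a group, as a fraction of the mean, was 0.434 over all genes.

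The 10 genes covered a wide range of levels. *Sox10* was the highest, with a mean of 174 FPKM ± 43.5 (SD, n = 6), above 97.9% of all genes. *Sox4* followed at 123 FPKM ± 64.3 and *Sox9* at 56.3 FPKM ± 22.8. *Sox13* (17.9 FPKM ± 12.5), *Sox8* (11.6 FPKM ± 14.4), *Sox12* (7.69 FPKM ± 2.28) and *Sox5* (6.54 FPKM ± 1.04) formed a middle range. *Sox6* (2.09 FPKM ± 1.33) and *Sox11* (0.428 FPKM ± 0.313) were low, and *Sox2* (0.025 FPKM) was at the limit of detection. None of the 8 pairs of neighbors tested in this order differed at an adjusted p of 0.05, and *Sox11* and *Sox2*, which was at 0 in some tumors, were not tested. The order and the pairs were taken from these same 6 tumors, and neighbors in an order are the closest by construction. *Sox10* exceeded *Sox4* in 5 of 6 tumors (exact sign-flip permutation test on log2 FPKM, two-sided, p = 0.281, adjusted p = 0.357 over 8 pairs). *Sox4* exceeded *Sox9* in 5 of 6 tumors (p = 0.0625, adjusted p = 0.125, exact permutation) and *Sox12* exceeded *Sox5* in 5 of 6 (p = 0.125, adjusted p = 0.2, exact permutation). *Sox13* exceeded *Sox8* in 4 of 6 tumors (p = 0.312 by the same exact permutation test, adjusted p = 0.357), and *Sox8* exceeded *Sox12* in 2 of 6 (p = 0.656, adjusted p = 0.656, exact permutation). *Sox9* was above *Sox13*, *Sox5* above *Sox6*, and *Sox6* above *Sox11* in all 6 tumors, each with p = 0.0312 by exact permutation, the smallest that 6 tumors allow, and an adjusted p of 0.083.

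**Figure D1:**
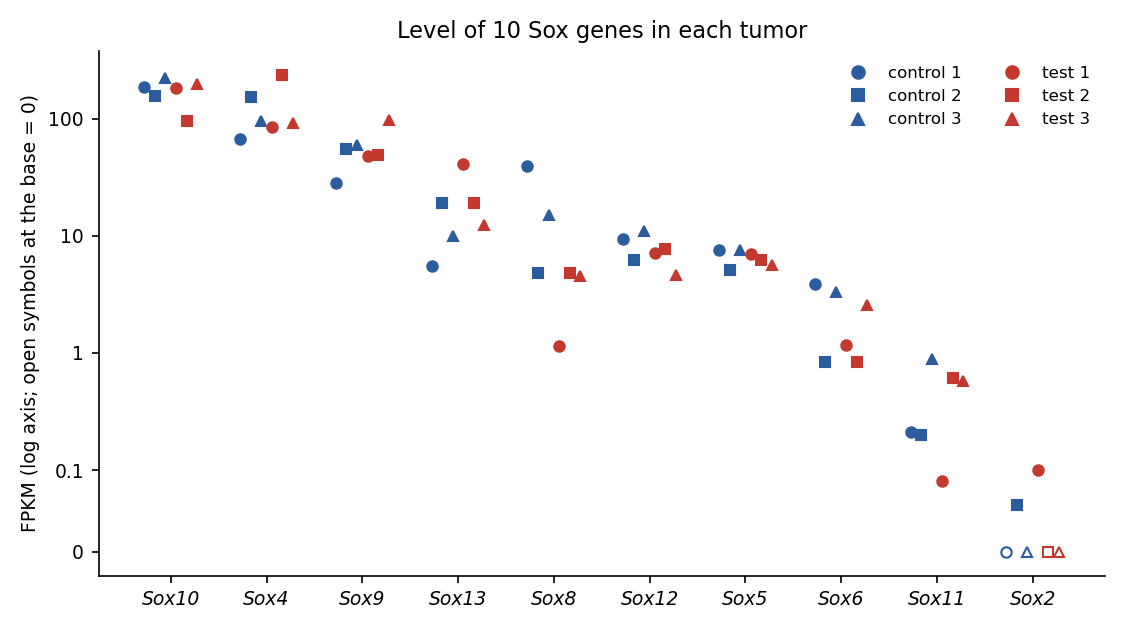
FPKM (log axis) of 10 *Sox* genes in each of 6 tumors, with control tumors in blue, test tumors in red and the replicate number by symbol; open symbols at the base are values of 0. *Sox10* is highest in 5 tumors and *Sox4* in test replicate 2, and *Sox8* has the widest spread among the control tumors of the genes above 1 FPKM, from 4.84 to 39.5 FPKM.

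The 3 leading genes held most of the expression of the family. The summed level of the 10 genes was 350, 403 and 426 FPKM in control replicates 1, 2 and 3, against 376, 424 and 417 FPKM in test replicates 1, 2 and 3. *Sox10* held 38.7% to 53.6% of it in the control tumors and 22.8% to 49.3% in the test tumors. *Sox4* held 56.3% of the sum in test replicate 2 and 38.5% of it in control replicate 2, against 19.3% to 22.7% in the other 4 tumors. *Sox8* held 11.3% in control replicate 1, where it exceeded *Sox9*, and 0.306% in test replicate 1. *Sox13* held 10.9% in test replicate 1 and 1.59% to 4.77% in the other tumors.

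**Figure D2:**
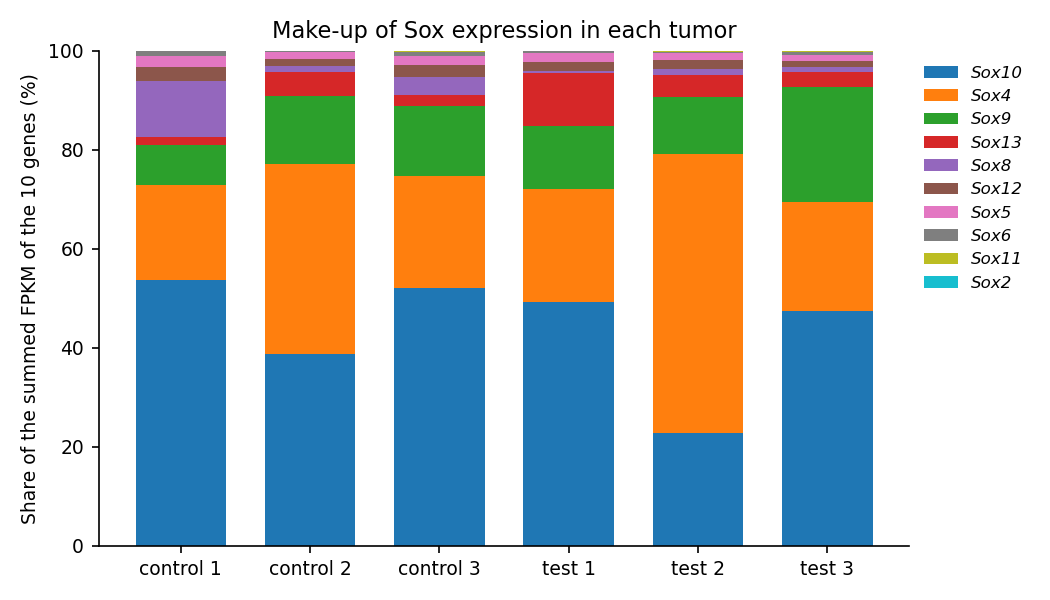
Share (%) of each *Sox* gene in the summed FPKM of the 10 genes, as stacked bars for 6 tumors. *Sox10* takes the largest part in 5 tumors, *Sox4* takes 56.3% in test replicate 2, and the wide *Sox8* and *Sox13* segments are in control replicate 1 and test replicate 1.

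Test tumors were then compared with control tumors. Of the 9 tested *Sox* genes, 4 had a fitted fold change above 0 and 5 below 0. None passed an adjusted p of 0.05 in the quasi-likelihood test of edgeR, with p-values adjusted by Benjamini and Hochberg's method, as was the case for all 13706 tested genes (0%). DESeq2 took in 18436 genes without the filter of edgeR but applied its own default filter on mean count before adjustment. With it 344 genes passed, among them 1 *Sox* gene (*Sox8*). The number of genes left by that filter is not given here. At an unadjusted p of 0.05 in edgeR, 1 of 9 *Sox* genes passed, *Sox8*, which was lower in the test tumors, against 8.41% of all tested genes in either direction and 5.26% lower. In CPM the groups overlapped for 10 of 10 *Sox* genes, while they did not overlap for 12% of all tested genes. The median log2 fold change was -0.12 over the 9 genes and 0.02 over all tested genes. The counts for the *Sox* genes were thus near those for all genes.

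**Figure D3:**
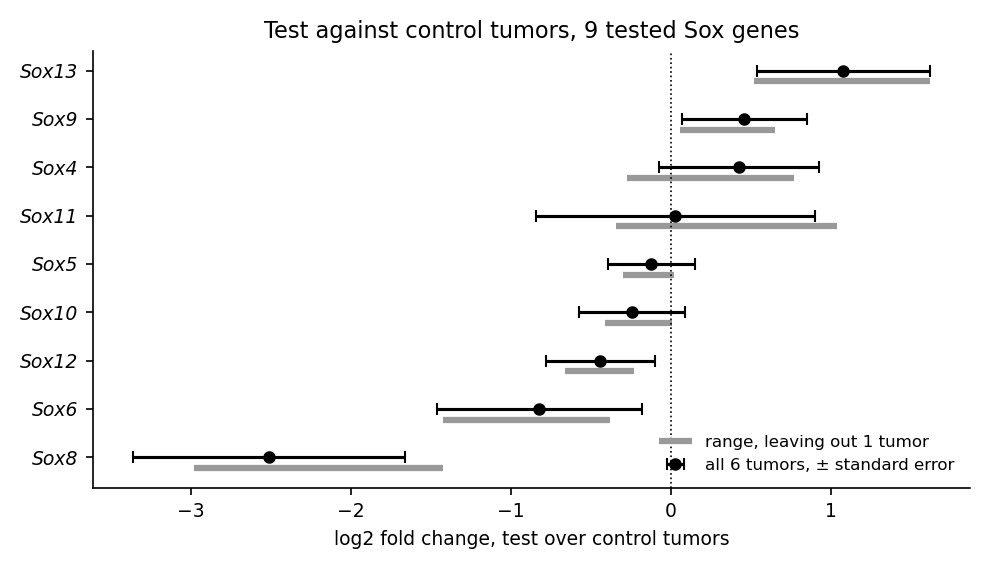
Log2 fold change of test over control tumors for the 9 tested *Sox* genes, with black points and bars for the edgeR estimate ± standard error from 6 tumors and grey bars for the range when 1 tumor is left out. *Sox8* is lowest at -2.51 and *Sox13* highest at 1.08, and the grey bars of *Sox4*, *Sox5*, *Sox10* and *Sox11* cross 0.

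Among group E genes, and among all members, *Sox8* had the lowest fold change. *Sox8* (NCBI Gene 20681, chr17:25565893-25570686 on GRCm38) is a factor of testis and glia. The antisense gene *2810468N07Rik* overlaps its exons, and its reads cannot be told apart from those of *Sox8* where the use of strand is not given. Its level was 39.5, 4.84 and 15.0 FPKM in control replicates 1, 2 and 3, against 1.15, 4.81 and 4.56 FPKM in test replicates 1, 2 and 3. Control replicates 1 and 3 were above all test tumors, while control replicate 2 was level with test replicates 2 and 3. The ranges did not overlap in FPKM, by the gap from 4.81 to 4.84, and overlapped in CPM, where control replicate 2 was at 14.1 and test replicate 2 at 15.3. The mean was 61.7 CPM ± 58.7 in control and 10.8 CPM ± 6.50 in test tumors (SD, n = 3 each). The log2 fold change was -2.51 (standard error, SE, 0.85, edgeR adjusted p = 0.483, unadjusted p = 0.0194). An exact permutation test on log2(CPM + 0.5) gave p = 0.2 (two-sided), where 3 tumors against 3 cannot give a p below 0.1. The adjusted p ran from 0.0395 with DESeq2 to 1 without control replicate 1 over 13 alternatives. Without control replicate 1 the log2 fold change was -1.42 (edgeR, unadjusted p = 0.0833), without test replicate 1 it was -2.08 (edgeR, unadjusted p = 0.0509), and without control replicate 2 it was -2.98 (edgeR, adjusted p = 0.112).

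*Sox9* (NCBI Gene 20682, chr11:112782210-112787757), the master factor of cartilage and a factor of luminal progenitors, was at 28.5, 55.4 and 60.1 FPKM in the control tumors. In test replicates 1, 2 and 3 it was at 47.8, 48.9 and 97.2 FPKM. The groups overlapped, with the lowest value in control replicate 1 and the highest in test replicate 3. The log2 fold change was 0.46 (SE 0.39, adjusted p = 0.784 in edgeR), and 0.06 without test replicate 3. *Sox10* (NCBI Gene 20665, chr15:79154913-79164490), a factor of neural crest, glia and melanocytes that is also made in mammary epithelium, was at 188, 156 and 222 FPKM in the control tumors. It was at 185, 96.9 and 198 FPKM in the test tumors, where test replicate 2 alone was below all controls. The log2 fold change was -0.24 (SE 0.33, adjusted p = 0.858 in edgeR), and 0.01 without test replicate 2.

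The balance of the group E genes differed widely between tumors. The ratio of *Sox8* to *Sox9* FPKM was 1.38, 0.0874 and 0.249 in control replicates 1, 2 and 3, against 0.0241, 0.0983 and 0.0469 in test replicates 1, 2 and 3. Control replicate 1 was the one tumor with more *Sox8* than *Sox9*. The mean log2 ratio was lower by 2.69 in the test tumors, and the groups overlapped (exact permutation test, two-sided, p = 0.2, adjusted p = 0.343 over 8 ratios that were chosen after the levels were seen). The gene whose log2(CPM + 0.5) followed that of *Sox8* most closely over the 6 tumors, among 10228 genes with a mean of at least 10 CPM, was *Septin10* (Pearson r 0.999, n = 6), a cytoskeletal GTPase, followed by *Ube2n* (r 0.998) and *Igfbp5* (r 0.990). Among the genes most like *Sox10* were *Csnk2a2* (r 0.995) and *App* (r 0.992). These are descriptions over libraries that all genes share, picked as the best of many.

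Genes of cartilage that SOX9, SOX5 and SOX6 are known to switch on were set beside the members. Of 15 genes on the list, 14 were listed in at least 1 tumor and 10 were tested, of which 8 were lower and 2 higher in the test tumors. At an unadjusted p of 0.05, 7 of 10 were lower and 0 were higher (5.26% of all tested genes were lower), and 0 passed an adjusted p of 0.05 in edgeR. This list and those below were chosen with earlier results of these data known. Their counts beside the share of all genes are therefore descriptions and carry no test. The median log2 fold change of the 10 genes was -3.71, against 0.02 over all tested genes. *Col2a1*, the main collagen of cartilage, was at 447, 2.51 and 59.4 FPKM in control replicates 1, 2 and 3, against 0.76, 2.97 and 0.66 FPKM in test replicates 1, 2 and 3. Its log2 fold change was -6.91 (SE 1.81, edgeR adjusted p = 0.407, unadjusted p = 0.0056), and control replicate 2 lay within the test range. *Col9a1*, a collagen on the surface of *Col2a1* fibrils, was at 507, 66.7 and 220 FPKM in the control tumors and at 36.2, 58.1 and 24.6 FPKM in the test tumors, which did not overlap (log2 fold change -2.76, SE 0.76, adjusted p = 0.425 in edgeR). *Cnmd*, which codes the cartilage protein chondromodulin, was at 152 and 98.6 FPKM in control replicates 1 and 3 and between 0.47 and 5.54 FPKM in the other 4 tumors. *Acan*, the proteoglycan of cartilage, did not exceed 0.10 FPKM in any tumor, and *Matn1* was listed in none. *Col27a1*, a fibrillar collagen, had the highest fold change of the list (log2 fold change 0.36, adjusted p = 0.915 in edgeR). *Col9a2*, the other gene that was higher, was at 31.1, 34.6 and 16.8 FPKM in control replicates 1, 2 and 3. In test replicates 1, 2 and 3 it was at 18.35, 30.1 and 35.8 FPKM (log2 fold change 0.04, adjusted p = 0.979 in edgeR).

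**Figure D4:**
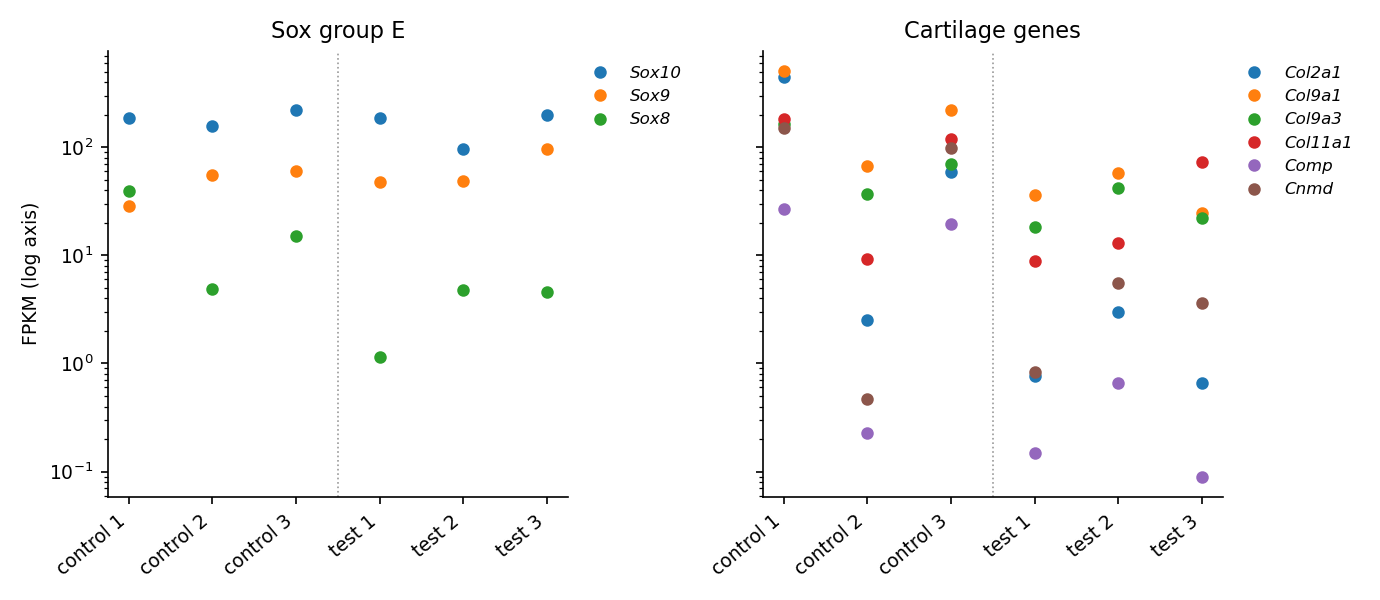
FPKM (log axis) in each of 6 tumors of the 3 group E genes (left) and of 6 genes of cartilage (right), with a dotted line between control and test tumors. *Sox8* and the 6 cartilage genes shown are highest in control replicates 1 and 3, where *Col2a1* was at 447 and 59.4 FPKM. Control replicate 2 sits near the test tumors, of which test replicate 3 was at 72.3 FPKM for *Col11a1*. *Sox9* and *Sox10* lie between 28.5 and 222 FPKM in all tumors. *Col9a2* and *Col27a1*, which had fold changes above 0, are not shown.

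The summed level of the cartilage genes was 1575, 153 and 717 FPKM in control replicates 1, 2 and 3, against 85.6, 161 and 163 FPKM in test replicates 1, 2 and 3. Control replicates 1 and 3 thus stood apart from the other 4 tumors, as they did for *Sox8*. Without control replicate 2, 8 of the same 10 genes were lower at an unadjusted p of 0.05 and 4 passed an adjusted p of 0.05 in edgeR (*Col2a1*, *Col11a2*, *Comp* and *Cnmd*). Leaving out any of the other 5 tumors left 5 or 6 of the 10 lower at an unadjusted p of 0.05 and 0 at an adjusted p of 0.05. These counts were added after the values were seen. In bulk tumors fewer cells of a type and less RNA per cell cannot be told apart.

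Melanocyte and glial genes that SOX10 is known to control had no common direction. Of 13 glial and neural crest genes, 11 were tested, 6 were higher and 5 lower, and 1 was higher at an unadjusted p of 0.05 (3.15% of all tested genes) with a median log2 fold change of 0.28. *S100b*, a calcium-binding protein of glia, was at 9.01, 50.3 and 31.3 FPKM in control replicates 1, 2 and 3, against 4.58, 29.1 and 15.3 FPKM in test replicates 1, 2 and 3 (log2 fold change -0.81, adjusted p = 0.793 in edgeR). *Ret*, a receptor kinase of enteric neural crest, was at 0.49, 0.54 and 0.93 FPKM in the control tumors and at 5.09, 0.66 and 1.24 FPKM in the test tumors (log2 fold change 1.80, adjusted p = 0.556 in edgeR). Of 6 melanocyte genes, 3 were tested and 0 passed an unadjusted p of 0.05. *Tyr*, the tyrosinase of melanin synthesis, was at 28.9, 15.5 and 20.9 FPKM in the control tumors and at 21.0, 33.9 and 37.7 FPKM in the test tumors (log2 fold change 0.50, adjusted p = 0.745 in edgeR). Its expected counts were not whole. *Mitf*, the master factor of melanocytes, was at 0.73 to 3.28 FPKM, and *Pmel* and *Mlana*, pigment-cell proteins, were at 2.03 to 5.37 FPKM and at 0 to 5.09 FPKM. *Dct* and *Tyrp1*, the other enzymes of melanin synthesis, did not exceed 0.10 FPKM. The part of melanocytes in the level of *Sox10* was not tested.

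The groups overlapped for each of the group C genes. *Sox4* (NCBI Gene 20677, chr13:28948919-28953699), a factor of progenitor cells with a known role in epithelial-mesenchymal transition, was at 67.6, 155 and 96.6 FPKM in control replicates 1, 2 and 3. In test replicates 1, 2 and 3 it was at 85.5, 239 and 91.5 FPKM. Replicate 2 was the highest in each group, and the other 4 tumors lay between 67.6 and 96.6 FPKM. The log2 fold change was 0.43 (SE 0.50, adjusted p = 0.832 in edgeR), and -0.27 without test replicate 2. *Sox12* (NCBI Gene 20667, chr2:152393611-152398046), a close relative of *Sox4*, was at 9.50, 6.19 and 10.9 FPKM in the control tumors and at 7.09, 7.80 and 4.60 FPKM in the test tumors. The log2 fold change was -0.44 (SE 0.34, adjusted p = 0.760 in edgeR). *Sox11* (NCBI Gene 20666, chr12:27334268-27342718), a factor of developing neurons, was at 0.21, 0.20 and 0.89 FPKM in the control tumors and at 0.08, 0.61 and 0.58 FPKM in the test tumors, from 6 to 69 counts per tumor. Its log2 fold change of 0.03 (SE 0.87, adjusted p = 0.995 in edgeR) became -0.27 without control replicate 1 and 1.04 without control replicate 3.

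Of 5 genes known to be controlled by group C factors, 3 were tested, 2 were higher and 1 lower. *Tead2*, a DNA-binding partner of the Hippo pathway, was at 24.3, 13.9 and 17.4 FPKM in the control tumors and at 59.9, 37.0 and 30.4 FPKM in the test tumors, and the groups did not overlap. Its log2 fold change was 1.18 (SE 0.36, edgeR adjusted p = 0.454, unadjusted p = 0.0115). *Ezh2*, a histone methyltransferase, had a log2 fold change of -0.08 (adjusted p = 0.952 in edgeR).

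Among genes of epithelial-mesenchymal transition and mesenchymal cells, 8 of 9 were lower in the test tumors, 6 at an unadjusted p of 0.05 (5.26% of all tested genes) and 0 at an adjusted p of 0.05 in edgeR, with a median log2 fold change of -1.84. *Cdh2*, the cadherin of mesenchymal cells, was at 21.2, 0.62 and 21.2 FPKM in control replicates 1, 2 and 3, against 0.89, 0.72 and 1.71 FPKM in test replicates 1, 2 and 3 (log2 fold change -3.71, SE 1.11, adjusted p = 0.454 in edgeR). *Vim*, the intermediate filament of such cells, was at 538, 127 and 761 FPKM in the control and 102, 274 and 184 FPKM in the test tumors (log2 fold change -1.33, adjusted p = 0.660 in edgeR). For both genes control replicates 1 and 3 were above the other tumors, whereas *Sox4* was at 67.6 and 96.6 FPKM in them. Leaving out 1 tumor left between 0 (without test replicate 2) and 7 (without control replicate 2) of these genes lower at an unadjusted p of 0.05, with 1 without control replicate 1, 4 without control replicate 3 and 2 without test replicate 1 or test replicate 3. Without control replicate 2, 4 of them passed an adjusted p of 0.05 in edgeR.

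In group D, the fold changes of *Sox13* and *Sox6* had opposite signs. *Sox13* (NCBI Gene 20668, chr1:133382300-133424459), which is known from T cell development and from binding of the WNT factor TCF1, was at 5.57, 19.2 and 9.98 FPKM in control replicates 1, 2 and 3. In test replicates 1, 2 and 3 it was at 41.0, 19.3 and 12.3 FPKM. Test replicate 1 was above all other tumors and control replicate 2 lay among the test tumors, so that the test tumor was higher in 8 of 9 pairs of a test and a control tumor. The log2 fold change was 1.08 (SE 0.54, edgeR adjusted p = 0.658, unadjusted p = 0.0821), from 0.52 without test replicate 1 to 1.62 without control replicate 2 (edgeR, unadjusted p = 0.0214), and 1.40 without test replicate 3 (edgeR, unadjusted p = 0.0368). The mean was 40.7 CPM ± 23.1 in control and 86.0 CPM ± 49.97 in test tumors (SD, n = 3 each). *Sox6* (NCBI Gene 20679, chr7:115470872-116040776), which acts with SOX9 in cartilage and in muscle fiber type, was at 3.87, 0.83 and 3.29 FPKM in the control tumors and at 1.16, 0.84 and 2.55 FPKM in the test tumors. Its log2 fold change was -0.82 (SE 0.64, adjusted p = 0.763 in edgeR), from -1.42 without test replicate 3 to -0.38 without control replicate 1. *Sox5* (NCBI Gene 20678, chr6:143828425-144782287), its partner in cartilage, had the smallest ratio of highest to lowest level of the members, at 7.62, 5.15 and 7.63 FPKM in the control and 6.96, 6.28 and 5.62 FPKM in the test tumors (log2 fold change -0.12, SE 0.27, adjusted p = 0.915 in edgeR).

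The balance within group D differed widely between tumors. The ratio of *Sox13* to *Sox6* FPKM was 1.44, 23.2 and 3.03 in control replicates 1, 2 and 3, against 35.3, 22.9 and 4.84 in test replicates 1, 2 and 3. The groups overlapped, with a mean log2 ratio higher by 1.76 in the test tumors (exact permutation test, two-sided, p = 0.3, adjusted p = 0.343). Over the 6 tumors the log2(CPM + 0.5) of *Sox13* ran against that of *Sox8* (Pearson r -0.96, Spearman rho -0.77) and *Sox6* (r -0.83, rho -0.77), and *Sox4* ran against *Sox10* (r -0.94, rho -0.60). *Sox6* went with *Sox10* (r 0.78, rho 0.89) and *Sox5* with *Sox12* (r 0.84, rho 0.83). These values describe 6 libraries and carry no test. The genes most like *Sox13* were *Flnc*, a filamin of muscle (r 0.992), *Gatc* (r 0.985) and *Acsf3* (r 0.983).

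Markers of muscle, and in part of fat, varied with *Sox13* over the tumors. The summed level of 10 skeletal muscle markers was 4.79, 108 and 3.39 FPKM in control replicates 1, 2 and 3, against 481, 125 and 64.4 FPKM in test replicates 1, 2 and 3. The tumors with most *Sox13*, test replicate 1, test replicate 2 and control replicate 2, were those with most muscle marker RNA. In the test tumors 10 of 10 of these markers were higher, 2 at an unadjusted p of 0.05 (3.15% of all tested genes), with a median log2 fold change of 2.67 and 0 at an adjusted p of 0.05 in edgeR. The summed level of 8 fat cell markers was 58.2, 34.0 and 51.5 FPKM in the control tumors and 625, 163 and 33.6 FPKM in the test tumors. Of the 4 tested, 4 were higher, 3 at an unadjusted p of 0.05 (3.15% of all tested genes) and 0 at an adjusted p of 0.05 in edgeR. Muscle and fat markers were not alone in this. The 8 epithelial markers also summed to least, at 1181 and 1133 FPKM, in control replicates 1 and 3, the tumors with least *Sox13*. The part of any of these cells in the level of *Sox13* was not tested.

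**Figure D5:**
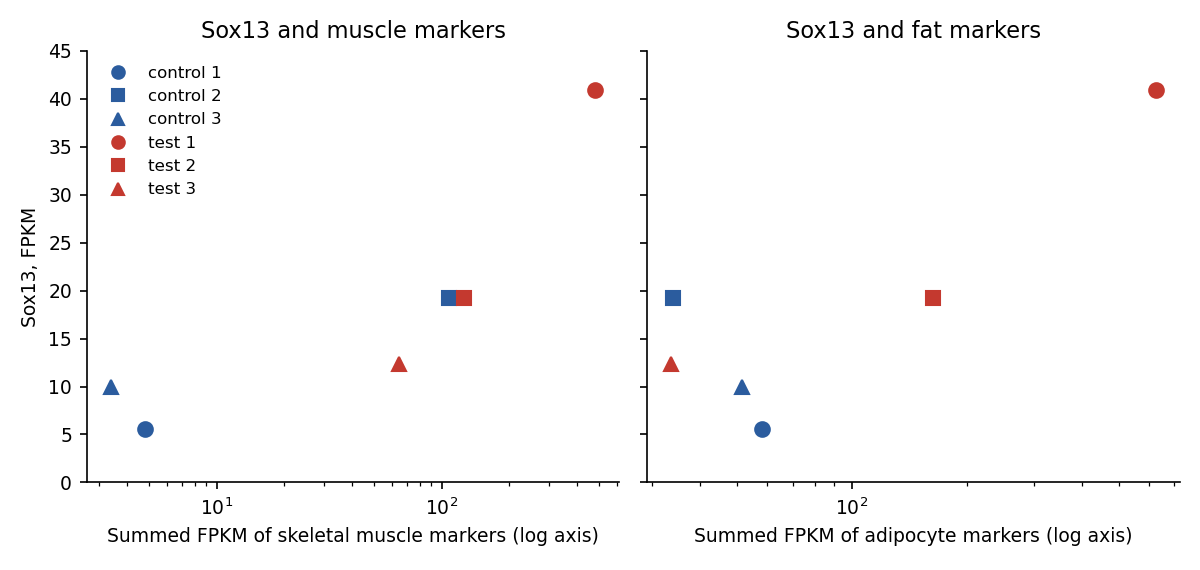
*Sox13* level (FPKM, linear axis) against the summed FPKM (log axis) of 10 skeletal muscle markers (left) and 8 fat cell markers (right) in 6 tumors, with blue for control, red for test and the replicate number by symbol. Test replicate 1, at 41.0 FPKM of *Sox13*, has the most muscle (481 FPKM) and fat (625 FPKM) marker RNA, while control replicate 2 and test replicate 2 have like *Sox13* levels and unlike fat marker sums.

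*Sox2* (NCBI Gene 20674, chr3:34649995-34652461) had 1 count in control replicate 2, 2 counts in test replicate 1 and 0 in the other 4 tumors, so that no tumor reached the floor of 3 counts and no fold change is given. Of 9 pluripotency partners and targets of SOX2, 5 were listed and 3 were tested. *Pou5f1*, its main partner in embryonic stem cells, did not exceed 0.23 FPKM. *Nanog*, for which reads may come from copies of the gene, was at 0.94, 6.44 and 3.22 FPKM in the control tumors and at 3.60, 16.4 and 4.80 FPKM in the test tumors (log2 fold change 1.30, adjusted p = 0.702 in edgeR), with expected counts that were not whole.

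The remaining family members and the related TCF and LEF factors, which share the HMG box, were followed for comparison. Of 10 other *Sox* family genes, 8 were listed and 2 were tested. *Sox18* and *Sox7*, factors of endothelial cells, had log2 fold changes of 0.06 (adjusted p = 0.976 in edgeR) and -0.14 (adjusted p = 0.960 in edgeR). *Sox14*, a neural factor, had 71 counts in control replicate 2 and 61 in test replicate 2, against 6 in control replicate 1 and 0 in the other 3 tumors. *Sox3*, *Sox15*, *Sox17*, *Sox21* and *Sox30* had at most 20 counts in any tumor. Of the 4 TCF and LEF factors, 1 was higher and 3 lower, 2 of them at an unadjusted p of 0.05 (5.26% of all tested genes). *Tcf7*, which codes TCF1, was at 12.6, 25.8 and 11.5 FPKM in the control and 10.97, 6.06 and 9.01 FPKM in the test tumors, all below the controls (log2 fold change -0.93, adjusted p = 0.560 in edgeR). *Lef1*, an effector of WNT signaling, was at 30.7, 0.83 and 2.21 FPKM in the control and 0.05, 1.76 and 0.05 FPKM in the test tumors (log2 fold change -4.52, SE 1.74, adjusted p = 0.542 in edgeR). *Tcf7l2*, another such effector, was at 8.62, 11.3 and 10.9 FPKM in the control and 22.2, 14.5 and 11.7 FPKM in the test tumors, all above the controls (log2 fold change 0.63, adjusted p = 0.630 in edgeR).

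Markers of mammary cell types also varied between the tumors. The 8 epithelial markers summed to 1181, 2546 and 1133 FPKM in control replicates 1, 2 and 3 and to 3172 to 3346 FPKM in the test tumors, with 8 of 8 higher and 3 at an unadjusted p of 0.05 (3.15% of all tested genes). Control replicates 1 and 3, the tumors with most *Sox8* and cartilage RNA, had the lowest epithelial sums. The 6 luminal progenitor markers summed to 5233 to 5743 FPKM in the control and 11520 to 14340 FPKM in the test tumors, with 6 of 6 higher and 3 at an unadjusted p of 0.05. Most of that sum came from *Csn3* and *Wfdc18*, which code secreted milk proteins, and *Elf5*, *Kit* and *Aldh1a3* overlapped between the groups. *Cd14*, the remaining marker, did not overlap. It was at 36.2, 98.4 and 50.3 FPKM in control replicates 1, 2 and 3, against 137, 117 and 124 FPKM in test replicates 1, 2 and 3 (log2 fold change 1.06, adjusted p = 0.483 in edgeR). The 11 basal markers summed to 291, 247 and 1448 FPKM in the control and to 559.8, 397 and 279 FPKM in the test tumors, so that control replicate 3 stood apart and test replicates 1 and 2 were above the other controls. The fitted fold change was below 0 for 10 of them, 2 at an unadjusted p of 0.05 (5.26% of all tested genes were lower). *Trp63*, a basal factor, was at 99.3 FPKM in control replicate 1 and 1.61 to 15.8 FPKM in the other tumors. Mature luminal markers (6 of 9 higher), endothelial markers (5 of 7 higher) and fibroblast markers (5 of 7 higher) had 0 genes at an unadjusted p of 0.05. Of 6 tested leukocyte markers 5 were lower, 1 at an unadjusted p of 0.05 (5.26% of all tested genes were lower). *Cd3d*, a T cell marker, was the 1 that was higher, at 0.74 to 1.81 FPKM with expected counts that were not whole. *Cd4*, another such marker, was at 0.66, 0.58 and 1.24 FPKM in control replicates 1, 2 and 3. In test replicates 1, 2 and 3 it was at 0.35, 0.48 and 0.61 FPKM (log2 fold change -0.75, adjusted p = 0.750 in edgeR). Epidermal markers summed to at most 6.09 FPKM. The part of these cell types in the levels of the *Sox* genes was not tested.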

How the data were processed

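Per the paper, bulk tumor libraries were sequenced on an Illumina HiSeq and aligned to mm10 with Bowtie. The submitters' processing notes list Bowtie, BWA and RSEM without versions. Each deposited file held, per gene, an expected count (not normalized), an FPKM (normalized by the authors for length and depth) and the gene length. Between 79.0% and 80.1% of the deposited expected counts in a tumor were whole. The annotation release and use of strand are not given in the sources used here. *Sox4*, *Sox5* and *Sox8* share exon sequence with antisense genes of GENCODE M21, and reads from the gene and its partner cannot be told apart. Genes were given by NCBI Gene identifier, and 18400 of 18460 were matched to RefSeq on GRCm38.p6. Genes not listed for a tumor were set to 0.

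Expected counts were rounded and tested for 3 test against 3 control tumors without covariates in edgeR 4.0.16 (R 4.3.3) with filterByExpr, TMM, the quasi-likelihood test and Benjamini-Hochberg adjustment over all tested genes. The standard error is the log2 fold change divided by the square root of F. Exact permutation tests of single genes used all 20 splits of the 6 tumors on log2(CPM + 0.5). Those of ratios used the same splits on the log2 ratio of FPKM. Those of neighboring members flipped the signs of the within-tumor log2 FPKM differences in every combination. Alternatives were DESeq2 1.42.0, RLE scaling, no filter, at least 10 counts in every tumor, limma 3.58.1 on log2(FPKM + 1) and log2(FPKM + 0.1) at a mean FPKM of at least 1, a replicate block, and leaving out each tumor. The edgeR and DESeq2 fits were also run on simulated counts with planted changes. The outcome of that run is not given here, and no result rests on it. The members and lists were chosen with earlier results of these data known. All members and every other *Sox* family gene with counts were named, and from each list the genes with the highest mean FPKM and the highest and lowest fold change. *Col9a2*, *Col11a1*, *Col11a2*, *Comp*, *Cnmd*, *Acan*, *Matn1*, *Dct*, *Tyrp1*, *Pmel*, *Mlana*, *Tcf7*, *Wfdc18*, *Elf5*, *Kit*, *Aldh1a3*, *Cd14*, *Cd4* and *Pou5f1* were added as members of those lists after their values were seen. The study's differential expression method is named as one of several, and its other data were not analysed here. A few genes of these lists are not reported here by name.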

Additional observations from a re-analysis of the deposited data

How the results depend on the processing

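Of 114 fold changes of the 9 tested *Sox* genes under 13 alternatives, 106 kept their direction and 8 reversed. Reversals were *Sox4* (-0.27) and *Sox10* (0.01) without test replicate 2, *Sox5* (0.02) without control replicate 1, and *Sox11* in 5 fits, at -0.08 with the replicate block and in 4 that left out 1 tumor. Over the fits that left out 1 tumor, the log2 fold change ran from -0.27 to 0.77 for *Sox4*, from -0.30 to 0.02 for *Sox5*, from -0.41 to 0.01 for *Sox10* and from -0.34 to 1.04 for *Sox11*. *Sox11* had no value under the filter of 10 counts or in limma. DESeq2, with its own default filter on mean count, called 344 of the 18436 genes it took in, among them 1 *Sox* gene, *Sox8*, at an adjusted p of 0.05. At that level limma on log2(FPKM + 1) called 1 of all genes, and without control replicate 2 edgeR called 182 (0 to 182 when 1 tumor was left out). The 1 *Sox* gene at an unadjusted p of 0.05 became 0 without control replicate 1 or test replicate 1, 2 without test replicate 3 and 3 (*Sox6*, *Sox8* and *Sox13*) without control replicate 2, so from 0 to 3 when 1 tumor was left out. With the replicate number as a block it became 0. Same-numbered tumors came from different mice, their deviations from the group means correlated at -0.0249, 0.121 and -0.137, and the numbers do not pair them. The cause of these changes was not tested. *Sox2* and *Sox11* had 0 to 69 counts per tumor. The standard error of *Sox11* (0.87) was close to that of *Sox8* (0.85), which had 29 to 1100 counts per tumor. What depth and the spread between tumors each add to these errors was not tested.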
